A study of Mus musculus with 2 samples.

Results

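The genes described here are 46 genes of DNA replication and S phase, chosen by symbol, with earlier results of these data known. They cover the licensing of replication origins (11 genes), the activation of the replicative helicase (6), the clamp, clamp loader, polymerases and primase (10), single strand binding and Okazaki fragments (5), nucleotide supply (5), chromatin copying (5) and S phase entry with its checkpoint (4). All 46 symbols were found among the 17044 genes measured. The libraries were single-cell RNA libraries, 2 in 1 group, made from the colon epithelium of irradiated C57BL/6 mice of wild-type genotype, at 2 weeks after exposure, and the title of the series names radiation proctitis and the transplantation of colonoids, which are organoids grown from colon crypts. The labels give neither the age, sex nor number of the mice, nor which cells descend from a transplant, and controls without irradiation or without a transplant were not analysed here. The values are the authors' averages over the cells of 12 clusters, numbered 0 to 11, as unique molecular identifiers (UMIs) of a gene per 10000 UMIs of a cell. Libraries are not kept apart in these averages, so no value has a replicate, no test was possible and a difference between clusters is a description. The clusters were drawn from these same cells, so a gene that is high in 1 of them is no independent evidence about that cluster.

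DNA is copied once per cell cycle. Before S phase the origin recognition complex, Cdc6 and Cdt1 load the ring of Mcm2 to Mcm7 onto DNA, and Cdc45 and the GINS complex then turn the ring into a working helicase. Primase and polymerase alpha start each strand, the clamp Pcna is loaded by replication factor C and holds the polymerases, and ribonucleotide reductase with thymidylate synthase supplies the nucleotides. In the colon, dividing cells lie in the lower crypt and the cells of the surface no longer divide. E2F transcription factors, held back by pocket proteins until G1 cyclins and their kinases act, drive many of these genes.

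Because E2F sites are the textbook feature of these promoters, the letters of the sites were searched first. RefSeq promoter sequences on GRCm38.p6, which run from 250 bases before to 50 bases after an annotated start, were found for 37 of the 46 genes, in 42 promoters. The letters TTTCCCGC, TTTGGCGC, TTTCGCGC or TTTGCCGC, read on both strands and allowed to overlap, were in 13 of the 42 promoters (31%), against 2.26% of all 32851 promoters of the same length. The 13 genes were Mcm3, Mcm5, Mcm6, Mcm7, Orc1, Cdc6 and Cdt1 of origin licensing, Gins3, Rfc3, Pola1, Lig1, Uhrf1 and Hells. The 200 bases before the start are shown for 6 of them, 5′ to 3′ on the strand of the gene and with the matched letters in capitals, because they show how the letters lie ahead of the start in genes of different steps, the ring, its loader, the clamp loader and chromatin copying. They lie at chr8:75109309-75109508 (plus strand) for Mcm5, chr1:128359706-128359905 (minus strand) for Mcm6, chr5:138171884-138172083 (minus strand) for Mcm7, chr11:98907951-98908150 (plus strand) for Cdc6, chr5:151651209-151651408 (minus strand) for Rfc3 and chr19:38930790-38930989 (plus strand) for Hells.
Mcm5: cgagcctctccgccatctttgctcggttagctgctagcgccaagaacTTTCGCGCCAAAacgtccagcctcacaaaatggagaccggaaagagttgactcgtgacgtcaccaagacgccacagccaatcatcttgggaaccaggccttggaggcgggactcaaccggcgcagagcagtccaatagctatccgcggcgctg
Mcm6: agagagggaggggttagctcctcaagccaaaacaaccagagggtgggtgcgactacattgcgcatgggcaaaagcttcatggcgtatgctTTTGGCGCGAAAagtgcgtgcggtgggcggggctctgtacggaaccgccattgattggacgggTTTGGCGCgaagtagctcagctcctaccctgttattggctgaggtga
Mcm7: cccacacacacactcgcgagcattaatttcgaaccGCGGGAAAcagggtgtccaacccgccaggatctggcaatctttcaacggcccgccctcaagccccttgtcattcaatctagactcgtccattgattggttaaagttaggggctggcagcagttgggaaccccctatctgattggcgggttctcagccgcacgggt
Cdc6: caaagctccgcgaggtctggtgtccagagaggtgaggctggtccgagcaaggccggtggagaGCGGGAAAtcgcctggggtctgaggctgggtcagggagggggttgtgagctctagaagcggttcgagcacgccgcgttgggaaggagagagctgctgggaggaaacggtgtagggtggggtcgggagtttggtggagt
Rfc3: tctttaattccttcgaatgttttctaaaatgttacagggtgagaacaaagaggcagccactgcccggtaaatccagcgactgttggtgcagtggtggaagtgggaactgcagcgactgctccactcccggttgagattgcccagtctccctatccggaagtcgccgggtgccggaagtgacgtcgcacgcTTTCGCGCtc
Hells: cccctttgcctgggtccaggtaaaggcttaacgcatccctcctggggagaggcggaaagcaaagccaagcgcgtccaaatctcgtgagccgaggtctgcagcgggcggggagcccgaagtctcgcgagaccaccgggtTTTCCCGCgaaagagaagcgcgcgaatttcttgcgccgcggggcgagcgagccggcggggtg
Mcm5 and Mcm6 each held a forward match and a reverse match that overlap, and Mcm6 held a further one nearer the start. Mcm7 and Rfc3 each had another match outside the bases shown, at or after the start. In Mcm3, Cdt1 and Lig1, which are not shown, the matches lay only after the start. A match is a description of letters and not of a bound site, and no binding was measured here.

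The same windows were searched for the letters of the cell cycle homology region (CHR), TTTGAA or TTCGAA, which is the textbook feature of promoters of genes that peak in G2 and mitosis. They were in 6 of the 42 replication promoters (14.3%), against 78.6% of 28 promoters of a list of mitosis and G2 genes and 19.2% of all promoters. The E2F letters were in 3.57% of the mitosis promoters. The CCAAT box was in 59.5% of the replication promoters, against 78.6% of the mitosis promoters and 37.4% of all. The median GC content was 62.2% in the replication promoters, 59.8% in the mitosis promoters and 52.7% in all promoters, and its part in these shares was not tested.

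**Figure D1:**
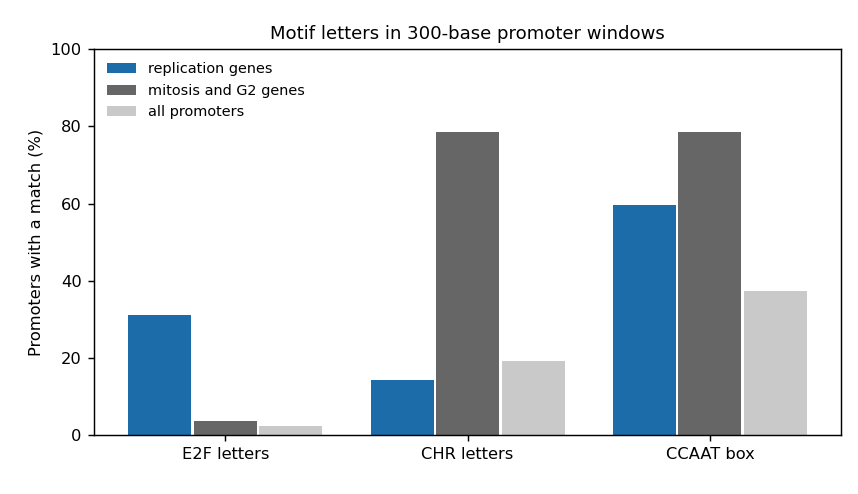
Share of promoter windows, in %, that hold each set of motif letters on either strand, for the 42 promoters of replication genes, 28 promoters of mitosis and G2 genes and all 32851 promoters. The E2F letters were in 31% of the replication promoters and 3.57% of the mitosis promoters, and the CHR letters in 14.3% and 78.6%.

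The averages carry the number of cells and the depth of many cells, because a gene with 1 UMI in 1 cell gives a whole number when 10000 is divided by its average. They held 3082 cells, from 482 in cluster 0 to 31 in cluster 10 and 19 in cluster 11, and a UMI total could be read for 2285 of them. The median total was 19551.5 UMIs in cluster 7, 2505 in cluster 6, 1436 in cluster 5 and between 6559 and 16323 in the other 9 clusters. A value of 0 allows a level of up to 0.0096 per 10000 in cluster 7, 0.0643 in cluster 6, 0.0847 in cluster 5, 0.139 in cluster 10 and 0.174 in cluster 11, which is what 3 UMIs would give. The 95% intervals given below are exact Poisson intervals on approximate UMI numbers and cover counting error only. The labelled tissue was checked against 6 epithelial markers, among them Epcam and Krt8, whose summed level was 153 per 10000 in cluster 7 and between 88.8 and 235 in 9 other clusters, but 31.2 in cluster 5 and 17.3 in cluster 10. Cluster 5 held 8 neutrophil markers at a summed 925 per 10000, led by S100a8 and S100a9. Cluster 10 held 7 macrophage and dendritic markers at 306, and also 5 mast cell markers at 198 and 6 T and NK cell markers at 12.9.

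Replication RNA was concentrated in cluster 7, an epithelial cluster of 247 cells. Summed over the 46 genes, its level was 24.4 UMIs per 10000, against 11.99 in cluster 10, 7.44 in cluster 6, 6.64 in cluster 2, 6.61 in cluster 9 and between 2.39 and 4.86 in the other 7 clusters. In a cell of median depth that is about 47.7 UMIs of these genes in cluster 7, 9.73 in cluster 10 and 1.86 in cluster 6. Of the 46 genes, 40 had their highest level in cluster 7, where 11.5% of all genes did. A level was called higher or lower where it lay at least 2-fold from the mean of the other 11 clusters, with 0.1 per 10000 added to both. A level below 0.1 cannot be called higher by this rule, and a level just above it only where the gene is nearly absent elsewhere. By this rule 31 of the 46 were higher in cluster 7, where 3.34% of all genes were, and none was lower (5.05% of all genes). The median log2 fold of the 46 was 1.42, and that of all 17044 genes was -0.02. With the added amount raised to 1 per 10000, which exceeds the level of most of these genes, the 31 became 2, while 40 remained highest in cluster 7 because that count uses no added amount. The share of all genes called with 1 added was not computed. In 8 genes, Tk1, Tyms, Rrm1, Mcm5, Gmnn, Rfc3, Rfc4 and Hells, the interval in cluster 7 lay above those of all other clusters (1.21% of all genes), and 26 did so against the 9 other clusters with over 100 cells (3.24% of all genes).

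**Figure D2:**
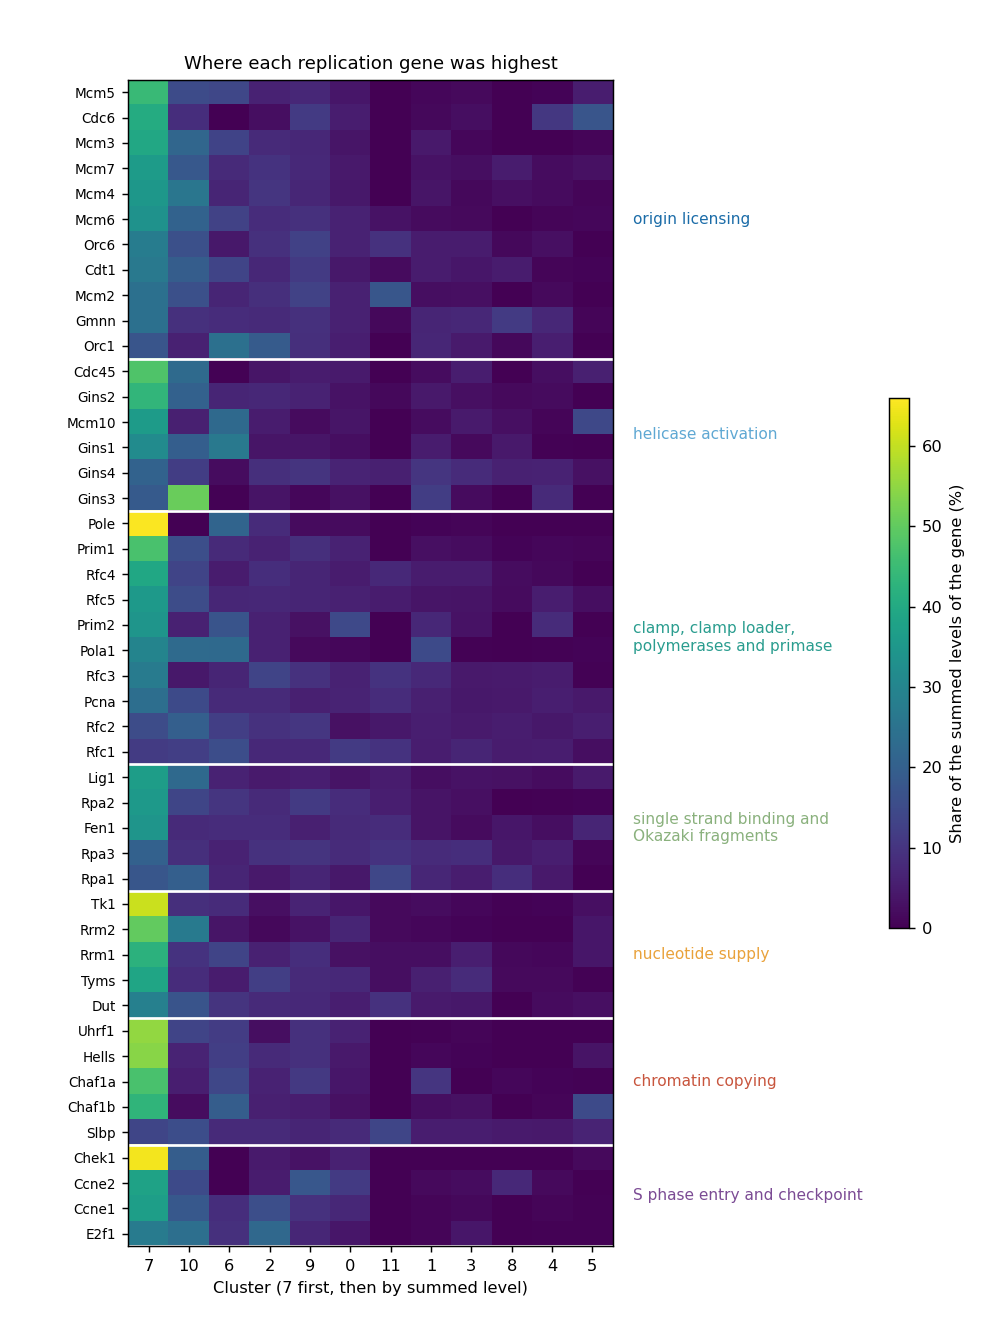
Share of each gene's summed levels, in %, held by each cluster, for the 46 replication genes grouped by role, with cluster 7 at the left and the other clusters by falling summed level. Cluster 7 is the brightest column for 40 of the 46 genes, and Gins3, Rpa1, Rfc2 and Slbp are brightest in cluster 10, Orc1 and Rfc1 in cluster 6.

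The level of 1 gene cannot be set against that of another, since the depth of capture differs between transcripts, so genes are compared by the share of their 12 summed levels that lay in cluster 7, which is 8.33% for a gene spread evenly. The median share of the 46 was 35.6%, and it ran from 65.5% for Pole down to 11.6% for Rfc1. By role, the median share was 46.9% for chromatin copying, 42.4% for nucleotide supply, 37.5% for S phase entry and checkpoint, 34.4% for single strand binding and Okazaki fragments, 34.1% for helicase activation, 33.6% for origin licensing and 32.1% for the clamp, loader, polymerases and primase. The ranges of the roles overlapped.

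Among the licensing genes, 9 of 11 were higher in cluster 7. Mcm5, a subunit of the helicase ring and one of the genes with overlapping E2F letters above, was at 0.784 per 10000 in cluster 7 (interval 0.689 to 0.889), against other clusters with a lowest level of 0, a median of 0.0708 and a highest of 0.264 in cluster 10. Its log2 fold over the mean of the others was 2.23. Mcm7 was at 0.861 in cluster 7, against a median of 0.106 and a highest of 0.432 in cluster 10. The 6 ring subunits are needed in equal number in the ring, and their shares in cluster 7 were 44.6% for Mcm5, 39.6% for Mcm3, 36.3% for Mcm7, 35.0% for Mcm4, 33.6% for Mcm6 and 24.5% for Mcm2. Mcm2, the lowest of them, was at 0.286 in cluster 7, against a median of 0.0706 and a highest of 0.205 in cluster 11, where 19 cells were averaged. Cdt1, which brings the ring to the origin, was at 0.303 in cluster 7 (interval 0.245 to 0.371), against a highest other level of 0.221 in cluster 10. Its inhibitor geminin, Gmnn, was at 0.949 in cluster 7 (interval 0.844 to 1.06) and between 0.038 and 0.441 elsewhere. Gmnn was spread more widely than most: its second highest level was that of cluster 8, in which 17 of the 46 genes were listed at 0. Cdc6, at 0.129 in cluster 7 against at most 0.0547, did not pass the 2-fold rule, and Orc1, below 0.1 there, could not. Orc1, the largest subunit of the origin recognition complex, was at 0.0643 in cluster 7 (interval 0.0393 to 0.0992), while cluster 6 had 0.089 (interval 0.0251 to 0.224), so the order of those 2 clusters is not fixed at this depth. Orc6, another subunit, was at 0.448 in cluster 7 and at most 0.262 elsewhere.

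Of the helicase activation genes, 3 of 6 were higher in cluster 7. The GINS complex has 1 copy of each of its 4 subunits, and these differed in where they were seen. Gins2 was at 0.645 in cluster 7 (interval 0.559 to 0.741), against a median of 0.0475 and a highest of 0.305 in cluster 10, with a log2 fold of 2.08. Gins4 was at 0.412 in cluster 7, against a median of 0.131 in the others and a lowest of 0.0452, so it was present throughout. Gins1 was at 0.127 in cluster 7 and 0.107 in cluster 6. Gins3 was at 0.0486 in cluster 7 (interval 0.0273 to 0.0799), while cluster 10 had 0.132 from 3 cells, 2 of them with 2 UMIs each and 1 with 1 UMI. Cdc45, the partner of GINS on the helicase, was at 0.162 in cluster 7, against a median of 0.0124 in the others. Mcm10, which helps to start unwinding, was at 0.1 in cluster 7 and at most 0.0626 elsewhere and did not pass the 2-fold rule.

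The clamp loader subunits were not alike. Pcna, the clamp, was at 0.962 in cluster 7 (interval 0.856 to 1.08), against other clusters from 0.174 to 0.601 with a median of 0.237, and its log2 fold was 1.48. Rfc3, Rfc4 and Rfc5, small subunits of the loader, were at 0.742, 0.688 and 0.598 in cluster 7, against medians of 0.169, 0.088 and 0.0871 in the other clusters. These 3 passed the 2-fold rule, with log2 folds of 1.60, 2.01 and 1.82. Rfc2, another small subunit, was at 0.947 in cluster 7, against a median of 0.336 and a highest of 1.23 in cluster 10. Rfc1, the large subunit, was at 0.392 in cluster 7 (interval 0.326 to 0.468), while cluster 6 had 0.527 (interval 0.34 to 0.781), and its log2 fold in cluster 7 was 0.40, one of the smallest among the 46. Prim1, the catalytic primase subunit, was at 0.461 in cluster 7, against a median of 0.0256, and its partner Prim2 was at 0.127, against 0.0223. Pole, the catalytic subunit of the leading strand polymerase, was seen at only 0.0982 in cluster 7. It was listed at 0 in 5 clusters, and the median of the other clusters was 0.000909. Its share in cluster 7 was 65.5% with each listed 0 counted as 0. In clusters 10 and 11, however, its 0 allows up to 0.139 and 0.174, above the level in cluster 7. Pola1, the catalytic subunit of polymerase alpha, had 0.133 in cluster 7, with 0.102 in cluster 10 next and then 0.101 in cluster 6.

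The 3 subunits of replication protein A, which coats single strands, also differed. Rpa2 was at 0.516 in cluster 7, against a median of 0.0794 and a highest of 0.201, with a log2 fold of 1.74. Rpa3 was at 1.05 in cluster 7 and between 0.0433 and 0.503 elsewhere, with a median of 0.413 and a log2 fold of 1.29. Rpa1, the large subunit, was at 0.362 in cluster 7 (interval 0.298 to 0.435), against a highest of 0.411 in cluster 10 (interval 0.186 to 0.784), and did not pass. The flap nuclease Fen1 and the ligase Lig1, which finish Okazaki fragments, were at 0.49 and 0.974 in cluster 7, against medians of 0.0962 and 0.129 in the other clusters. The highest other level of Fen1 was 0.121, in cluster 2. That of Lig1 was 0.6 in cluster 10 (interval 0.318 to 1.03), which overlapped its interval in cluster 7 (0.867 to 1.09).

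All 5 nucleotide supply genes were higher in cluster 7. Tk1, the cytosolic thymidine kinase, had the largest log2 fold of the 46, 3.04. It was at 1.41 in cluster 7 (interval 1.28 to 1.54), against other clusters from 0.0116 to 0.206 with a median of 0.0598. Tyms, thymidylate synthase, was at 1.70 in cluster 7 (interval 1.55 to 1.85), against a median of 0.25 and a highest of 0.53 in cluster 2, an epithelial cluster. The small subunit of ribonucleotide reductase, Rrm2, was at 0.717 in cluster 7 (interval 0.627 to 0.818), against a median of 0.0255. Its highest other level was 0.388 in cluster 10 (interval 0.171 to 0.755), so these intervals overlapped. The large subunit, Rrm1, was at 0.798 in cluster 7, against a median of 0.0728 and a highest of 0.256 in cluster 6. Dut, which breaks down dUTP, was at 1.57 in cluster 7, with 0.931 in cluster 10 and between 0.0137 and 0.54 elsewhere.

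In chromatin copying, 4 of 5 genes were higher in cluster 7. Uhrf1, which brings the maintenance methyltransferase to new DNA, was at 0.346 in cluster 7, against a median of 0.00615 and a highest of 0.0848. Hells, a chromatin remodeller, was at 0.575 in cluster 7 (interval 0.494 to 0.665), against a median of 0.0377 and a highest of 0.129 in cluster 6. Chaf1a and Chaf1b, subunits of the chaperone that places histones behind the fork, were at 0.236 and 0.422 in cluster 7, against medians of 0.0199 and 0.0279. Slbp, which binds the stem loop of histone messages, was the exception at 0.962 in cluster 7 (interval 0.857 to 1.08), against a median of 0.486, a lowest of 0.322 and a highest of 1.09 in cluster 10, so it was seen in every cluster. Of the entry and checkpoint genes, all 4 were highest in cluster 7 and 1, Ccne1, passed the 2-fold rule. Ccne2, Chek1 and E2f1 were below 0.1 per 10000 there, so the rule could not call them higher. Cyclin E1, Ccne1, was at 0.156 and cyclin E2, Ccne2, at 0.0697 in cluster 7, against medians of 0.00573 and 0.00401. The checkpoint kinase Chek1 was at 0.0912 in cluster 7, was listed at 0 in 6 clusters and was at most 0.0273 in the rest. E2f1 was at 0.0973 in cluster 7 (interval 0.0659 to 0.139), close to 0.0854 in cluster 10 (interval 0.00901 to 0.324).

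**Figure D3:**
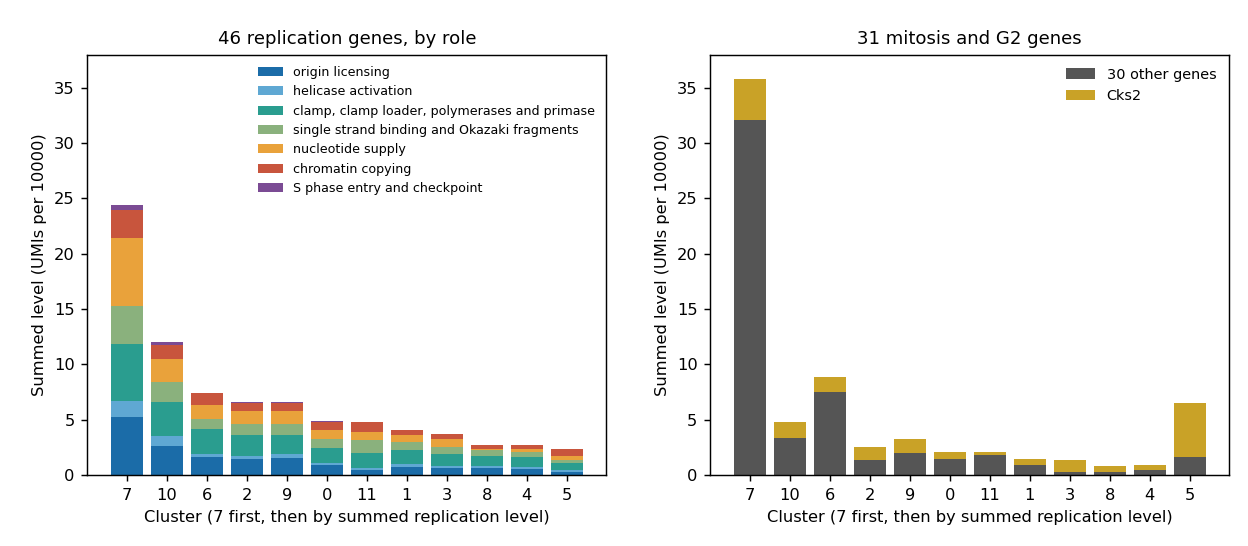
Summed level in UMIs per 10000 in each cluster of the 46 replication genes, stacked by role (left), and of 31 mitosis and G2 genes, with Cks2 shown apart (right), on the same vertical scale. Cluster 7 has 24.4 for replication and 35.8 for mitosis, and in cluster 5 Cks2 makes up 4.96 of a mitosis sum of 6.55.

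The mitosis and G2 list was concentrated in cluster 7 more strongly than the replication genes. Of its 31 measured genes, 30 were highest in cluster 7 (11.5% of all genes) and all 31 passed the 2-fold rule (3.34% of all genes), with a median log2 fold of 2.41. Their median share in cluster 7 was 61.6%, against 35.6% for the replication genes. Birc5, an inhibitor of apoptosis that works in mitosis, was at 3.67 in cluster 7, and Ube2c, which feeds the anaphase promoting complex, at 3.33. Mki67, a common marker of proliferation, had 1.47 UMIs per 10000 in cluster 7 and 0.726 in cluster 6. The ratio of the summed replication level to the summed mitosis level was 0.681 in cluster 7 and 0.84 in cluster 6, which also held B and plasma cell markers, and between 2.06 and 3.36 in clusters 0 to 4, 8, 9 and 11. It was 0.365 in cluster 5, but Cks2, a partner of the cyclin-dependent kinases, held 4.96 of that cluster's mitosis sum of 6.55, and without Cks2 the ratio was 0.76 in cluster 7, 0.988 in cluster 6 and 1.5 in cluster 5. Without Cks2 the ratio in clusters 0 to 4, 8, 9 and 11 ran from 2.74 in cluster 11 to 11.8 in cluster 3, where it was 2.72 with Cks2, so its size there depended on that 1 gene. Both lists were chosen knowing how such genes behave, so their height in cluster 7 is a description of that cluster.

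**Figure D4:**
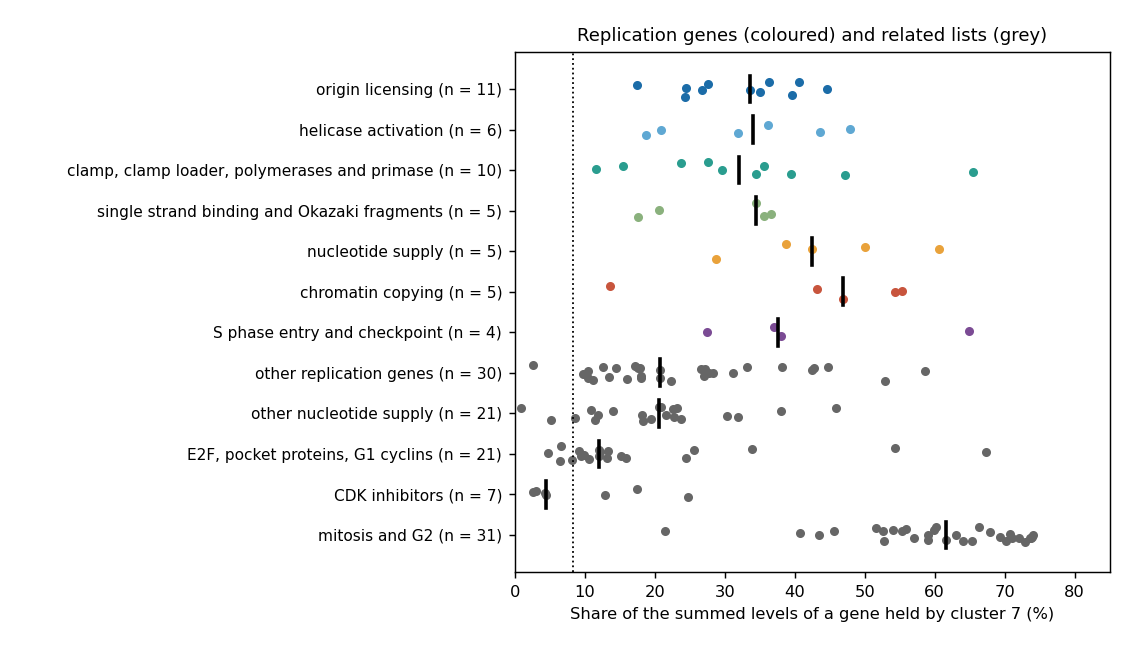
Share of each gene's summed levels that lay in cluster 7, in %, for the replication genes by role (coloured) and for 5 related lists (grey). Bars are medians and the dotted line is the even share of 8.33%. The mitosis genes have a median of 61.6% and the CDK inhibitors 4.46%.

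Cluster 6 held less replication RNA than cluster 7, relative to its own RNA, but more than most epithelial clusters. Its summed level was 30.5% of that of cluster 7, and its summed mitosis level was 24.7%. None of the 46 genes passed the 2-fold rule upward in cluster 6, where 3.23% of all genes did, and 2 were highest there, Orc1 and Rfc1, where 14.6% of all genes were. In 28 of the 46 genes cluster 7 was at least 2-fold above cluster 6 (4.05% of all genes), and in none was it as far below (5.63% of all genes). The median log2 fold of the 46 in cluster 6 was -0.01, and with cluster 7 left out of the comparison it was 0.24 and 2 genes passed. For that comparison the share of all genes was not computed. The highest of the crypt stem sums lay in these 2 clusters, 3.56 per 10000 over 6 measured markers in cluster 7 and 3.51 in cluster 6, against 0.07 to 2.58 elsewhere. The level of Lgr5 was 0.115 in cluster 7 and 0.117 in cluster 6. In depth cluster 6 was shallow and also held B and plasma cell markers at a summed 26.4 and enteroendocrine markers at 19.8 per 10000. The part of its depth and of those cells in its values was not tested.

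Regulators of the G1 to S step were spread differently from the replication genes. Of 21 genes for E2F factors, pocket proteins and G1 cyclins, 6 were highest in cluster 7 (11.5% of all genes). By the 2-fold rule 2 were higher there (3.34% of all genes). In cluster 6, 7 were highest (14.6% of all genes) and 6 were higher (3.23% of all genes). Cluster 6 was the shallower, with a median total of 2505 UMIs against 19551.5, and the part of depth was not tested. Cdk4, the kinase of the D cyclins, was at 2.59 in cluster 7 and 0.624 in cluster 6. Cyclin D2, Ccnd2, had 3.65 in cluster 7, below its 4.50 in cluster 6, and cyclin D1, Ccnd1, was at 0.877 in cluster 7 and 1.37 in cluster 6. Thus the D cyclins did not follow the replication genes between these clusters. E2f8, an E2F that represses the others, was at 0.185 in cluster 7 and at most 0.0272 elsewhere, a gene chosen after its values were seen.

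The inhibitors of cyclin-dependent kinases ran the other way for some genes. Of 7, 2 were at least 2-fold lower in cluster 7 (5.05% of all genes), Cdkn1a and Cdkn2b, and none was higher (3.34% of all genes). Cdkn1a, the p21 target of p53, was at 1.11 in cluster 7, its lowest level, and between 1.51 in cluster 6 and 6.52 in cluster 8. Cdkn2b, p15, was at 0.256 in cluster 7, and it had 1.60 in cluster 8 and 1.44 in cluster 4. Cdkn2c, p18, was highest in cluster 7 at 0.13, and Cdkn2a was at 0.249 there and at most 0.388, in cluster 1. Cdkn1b was at 0.153 in cluster 7 and 0.564 in cluster 5, Cdkn1c at 0.0623 in cluster 7 and 0.877 in cluster 6, and Cdkn2d at 0.423 in cluster 7 and 1.32 in cluster 5. The inhibitors therefore did not move as 1 group.

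Away from cluster 7, the lowest sums among epithelial clusters were those of clusters 4 and 8. In cluster 4, 12 of the 46 genes lay at least 2-fold below the mean of the others (7.29% of all genes), and in cluster 8, 11 did (9.41% of all genes), with 17 listed at 0 (29.0% of all genes). All 5 nucleotide supply genes were among those lower, in cluster 4 and in cluster 8 alike. The level of Dut was 0.111 in cluster 4 and 0.0137 in cluster 8, with 0.413 in cluster 9. That of Tyms was 0.078 in cluster 4 and 0.0741 in cluster 8, with 0.347 in cluster 9. Clusters 8 and 9 had the highest sums of 7 absorptive colonocyte markers, 261 and 236 per 10000, yet differed in replication RNA. In 9 of the 46 genes cluster 9 was at least 2-fold above cluster 8 (5.93% of all genes) and in none as far below (3.75% of all genes). None of the 46 was listed at 0 in cluster 9 (21.8% of all genes), and the sum was 6.61 in cluster 9 and 2.72 in cluster 8. A value of 0 in cluster 8 allows up to 0.0322 per 10000 and in cluster 9 up to 0.0252, so Mcm5, at 0.127 in cluster 9 and 0 in cluster 8, and Mcm6, at 0.176 in cluster 9 and 0 in cluster 8, differed by more than that limit. Samhd1, which breaks down the nucleotides that ribonucleotide reductase leads to, was at 0.115 in cluster 7, its lowest level, against 0.169 in cluster 9, 0.863 in cluster 4, 2.42 in cluster 8 and 6.13 in cluster 5. Against the median of the other clusters, in place of their mean, the count of lower genes was 3 in cluster 4 and 4 in cluster 8, and the share of all genes was not computed.

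Genes of the same pathways outside the 46 were followed in 4 further lists. Of all genes, 11.5% were highest in cluster 7, 3.34% were at least 2-fold higher there and 5.05% lower. Of 30 other replication and fork genes, 16 were highest and 10 at least 2-fold higher in cluster 7, with a median log2 fold of 0.76 and none lower. Top2a, which untangles copied chromosomes, was at 1.42 in cluster 7, Pole3, a small subunit of polymerase epsilon, at 1.01, and Top1 at 1.55, against 2.00 in cluster 11. Of 21 other nucleotide supply genes, 13 were highest and 11 higher in cluster 7 and 1, Samhd1, was lower, with a median of 1.02. Impdh2, for guanine nucleotides, was at 2.77 and Dctpp1, which clears modified dCTP, at 2.02 in cluster 7. Of 19 genes for S phase histones, chaperones and methylation maintenance, 13 were highest and 11 higher there, with a median of 1.33. H2afz, a histone variant, was at 17.7 in cluster 7 and 11.3 in cluster 10, Hmgb2 at 9.59 in cluster 7 and 4.44 in cluster 5, and H2afx at 1.80 in cluster 7. Of 21 checkpoint and repair genes, 7 were highest and 5 higher there, with a median of 0.62. Of these, Wee1, a kinase that holds back entry into mitosis, had 0.321 in cluster 7 and 0.396 in cluster 6, where the median total was 2505 UMIs. Atr had 0.183 in cluster 7 and 0.372 in cluster 11, there from 3 of 19 cells, with 6 UMIs in the cell of 22740 UMIs. Intervals for Wee1 and Atr are not given here, so no order of these clusters is drawn from them.

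Cluster 10, with immune markers, had the second highest sum, and 8 of the 46 genes were at least 2-fold higher there (5.77% of all genes), with 4 at their highest (8.84% of all genes). In 15 of the 46 cluster 7 was at least 2-fold above it (13.5% of all genes). It was small enough that many of its averages could be traced to single cells, since each cell has its own UMI total. Of the 45 genes above 0 in its 31 cells, 25 could be traced to a unique set of cells and UMIs, 129 UMIs in all. These came from 14 cells, and a few cells held most of them. The cell with 11837 UMIs held 17 of the genes with 35 UMIs, the cell with 20417 UMIs 13 with 31, the cell with 14464 UMIs 11 with 19, and the cell with 15495 UMIs 9 with 18. Mcm7 was traced to 5 cells, with 5, 5, 4, 5 and 2 UMIs in the cells of 11837, 20417, 14464, 15495 and 27349 UMIs. The 4 cells differed in mitosis genes: the first 2 held 15 and 19 of 22 traced mitosis genes with 26 and 47 UMIs, while the cells of 14464 and 15495 UMIs held 2 each, with 3 and 2 UMIs. Thus a pair of cells had replication RNA together with RNA of many traced mitosis genes, and another pair had replication RNA with few UMIs of those genes. Of 27 mitosis genes above 0 in cluster 10, 22 were traced. Those not traced included Cks2, which made up 1.41 of the cluster's mitosis sum of 4.79, Birc5 with 0.516 and Cenpa with 0.468. How the UMIs of the untraced genes lay in the 4 cells is not known. A further cell, of 27349 UMIs, held 5 of the genes with 9 UMIs and also UMIs of 5 crypt stem markers. These were 6 UMIs of Slc12a2 and 1 each of Smoc2, Ascl2, Axin2 and Lrig1. None of them was traced in the other 4 cells, but Slc12a2 was traced to 5 cells of the cluster, and Smoc2 and Lrig1 to 2 each. Whether that of 27349 UMIs is 1 cell or 2 was not tested, and the sources used here do not say how doublets were treated. An average over cells cannot tell fewer cells that carry these RNAs from less RNA in each. Tracing does not settle this in cluster 10, since it accepts only genes seen in at most 5 cells, and 20 of the 45 genes above 0 were not traced.

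**Figure D5:**
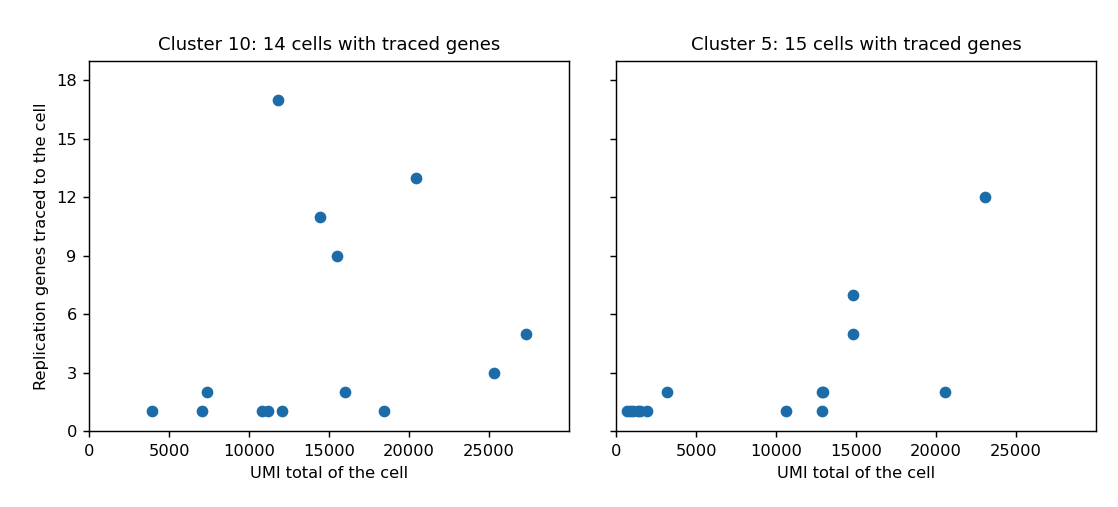
Number of replication genes traced to each cell against the UMI total of that cell, in cluster 10 (left, 25 traced genes) and cluster 5 (right, 20 traced genes). In cluster 10, 4 cells hold from 9 to 17 genes, and in cluster 5, 1 cell of 23051 UMIs holds 12.

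In cluster 5, the cluster of neutrophil markers, the 2-fold rule called 13 of the 46 genes lower (19.4% of all genes), and part of its replication UMIs could be traced. Of 38 genes above 0 there, 20 were traced, with 49 UMIs in 15 cells, and 38 of these UMIs (77.6%) lay in cells of over 10000 UMIs. Such cells were 8 of the 179 with a known total (4.47%), where the median total was 1436, and they held 31.1% of the UMIs of those 179 cells. The average weighs each cell alike, so a share of UMIs is not a share of the cluster's level. The 14 UMIs traced to the cell of 23051 UMIs were 6.07 per 10000 of that cell. In a cell of 865 UMIs, 2 UMIs were 23.1 per 10000. The cell with 23051 UMIs held 12 of the genes, that with 14796 UMIs 7 and that with 14818 UMIs 5. The first of these also held Ascl2 with 2 UMIs and Axin2 with 1, and the second Ascl2 with 1, which are crypt stem markers. In cluster 8 the traced UMIs were scattered instead: 14 genes gave 32 UMIs in 29 cells, and no cell held more than 2 of the genes. In cluster 4, 12 genes gave 25 UMIs in 24 cells. In cluster 11, 20 of the 24 genes above 0 were traced, and 1 cell, of 25382 UMIs, held 9 of them along with 12 mitosis genes. Tracing reaches only genes seen in few cells (at most 4 outside clusters 10 and 11), and in clusters 0 and 7 no gene could be traced.

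The 46 profiles over the 12 clusters were standardised on the log2 scale and compared with the mean profile of the other genes of the list. Pearson's r ran from 0.984 for Prim1, 0.979 for Gins2 and 0.976 for Rfc5 down to 0.627 for Cdc6, 0.619 for Orc1 and 0.573 for Gins3, over 12 clusters that share their depth and libraries. A level of 0.2 per 10000 in a cluster was reached by 9544 genes, those of the list included. Among those outside the list, the genes most like the mean profile included Spata24 (r of 0.989), Ndc1 (0.968), Top2a (0.965), Tacc3 (0.963), 2810417H13Rik (0.961), Dnph1 (0.960), Racgap1 (0.959), Cenph (0.958) and Nup43 (0.956). 2810417H13Rik is the older symbol of Pclaf, which binds Pcna, and it was at 2.27 per 10000 in cluster 7. All of these were highest in cluster 7.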

How the data were processed

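The authors processed single-cell RNA libraries of irradiated mouse colon epithelium with Cell Ranger 3.1.0 and Seurat 2.3 on the build mm10, per the submitters' processing notes, which leave cell filters, doublets and clustering unstated. The deposited value per gene and cluster is a mean over cells of UMIs per 10000, as read from the values: each of the 12 columns sums to 10000. The 2 libraries are pooled, so no error between animals and no p-value could be had.

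Cells per cluster and the UMI totals of cells were read from the averages (tolerance 1e-12, at least 2 genes for a total). Averages were traced to cells where 1 set of at most 4 cells with up to 3 UMIs each (5 cells and 6 UMIs in clusters 10 and 11) gave the value within 1e-14. On simulated data, 12 of 12 cell numbers and 93 of 93 traced averages came out right. In simulated data for cluster 7 over the mean of the other clusters (17044 genes), 0 of 50 genes raised 2-fold passed the rule. At 4-fold, at 8-fold and at 16-fold 50 of 50 did so, and 0 unchanged genes passed. These counts do not carry over to genes of low level, because of the amount added to both levels. In the real data Pole was 20.9 times the mean of the other clusters in cluster 7, and Cdc6 7.53 times. Neither passed, so failing the rule does not place a gene below 4-fold.

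The genes and lists were chosen with earlier results of these data known. Outside the 46, the text names the 3 genes of each list with the highest level in any cluster, all CDK inhibitors, Mki67, the 10 most similar profiles and the 2 leading genes of a marker list in clusters 5, 6 and 7. Lgr5, E2f8 and the crypt stem genes of single cells were picked after seeing their values. A gene that this rule names is not reported here. The alternatives were other added amounts, a weighted mean or median of the other clusters, clusters left out, a rescaling and a minimum level. Analyses used Python 3.11.15, numpy 2.4.6, pandas 2.3.3, scipy 1.17.1 and matplotlib 3.10.9.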

Additional observations from a re-analysis of the deposited data

How the results depend on the processing

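No paired analysis was possible because the averages pool the libraries, and for the same reason leaving out each replicate could not be run. The cause of a change below was not tested. With 0.01 or 1 per 10000 added in place of 0.1, the count of genes at least 2-fold higher was 42 and 2 in cluster 7, 6 and 0 in cluster 6 and 19 and 0 in cluster 10, and the count at least 2-fold lower was 33 and 0 in cluster 4, 33 and 0 in cluster 8 and 5 and 0 in cluster 9. Against the median of the other clusters, 4 genes were higher in cluster 6 and 17 in cluster 10, and 3 were lower in cluster 4 and 4 in cluster 8. With a mean weighted by cells, 7 were lower in cluster 4. Rescaled without mitochondrial, ribosomal protein and Malat1 RNA, which moved the median of all genes by 0.05 to 0.28 (log2), 1 was higher in cluster 6 and 19 were lower in cluster 8. In cluster 10, 5 were higher without clusters 5 and 10 in the comparison and 5 without clusters 5 and 6. Without cluster 7 in the comparison, which was chosen after seeing the data, 2 were higher in cluster 6.

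The median log2 fold of the 46 genes stayed above 0 in cluster 7 under every alternative run: 0.40 with 1 added, 2.35 with 0.01, 1.504 weighted, 1.53 against the median, 1.45 without clusters 5 and 10, 1.39 without clusters 5 and 6, 1.61 rescaled, 1.78 for genes at 0.2 or more and 1.49 without clusters 10 and 11. In cluster 6, where it was -0.012, it was -0.0029 with 1 added, -0.017 with 0.01, 0.065 weighted, 0.37 against the median, -0.091 without clusters 5 and 6, 0.075 rescaled, -0.044 at 0.2 or more, 0.029 without clusters 10 and 11 and 0.24 without cluster 7. In cluster 2, where it was -0.083, it was -0.014 with 1 added, -0.12 with 0.01, -0.015 weighted, 0.25 against the median, -0.062 without clusters 5 and 10, -0.1003 without clusters 5 and 6, -0.0057 rescaled, -0.064 at 0.2 or more, -0.046 without clusters 10 and 11 and 0.16 without cluster 7. Without Cks2 the ratio of replication to mitosis RNA was 0.76 in cluster 7 and 0.988 in cluster 6. As a median over genes, the level in cluster 6 was 28.2% of that in cluster 7 for replication and 19% for mitosis.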
